A study of Homo sapiens with 66 samples.

Results

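HIF binding was described at 8 genes of mitophagy and of the stress control of mTOR, namely BNIP3, BNIP3L, FUNDC1, ULK1, DDIT4, SESN2, MXI1 and BCL2L1, out of 19537 protein-coding genes. A peak was counted for one of them when its centre lay in the body of the gene or within 50 kb of a GENCODE transcription start, and nearer to that gene than to any other protein-coding gene. By this rule 326 of the 131425 peaks in 50 peak lists belonged to the 8 genes, and they merged into 25 of 50316 sites. Peaks were found at 6 of the 8 genes. DDIT4 had 122 peaks in 48 of the 50 libraries, BNIP3L 82 in 47, MXI1 54 in 36, BNIP3 32 in 29, BCL2L1 35 in 18 and SESN2 1 in 1, whereas FUNDC1 and ULK1 had none. The rule depends on which genes compete for a peak. When non-coding genes competed as well, DDIT4 kept 52 of its 122 peaks and SESN2 none. The nearest gene to the upstream DDIT4 site was then a long non-coding RNA (ENSG00000289506), so that all 48 peaks of that site and 21 of the 34 at the DDIT4 promoter were lost.

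The peaks came from chromatin immunoprecipitation and sequencing (ChIP-seq) with antibodies to the HIF-1α, HIF-2α or HIF-1β subunit in 3 human lines, with 2 libraries in each of 25 groups. HKC-8, a renal tubular epithelial line, was exposed for 6 h to 3% oxygen, or to 0.5% oxygen over 6, 16 and 48 h (the severity and duration experiment, 24 libraries). In a second experiment, wild-type (WT) HKC-8 cells, HIF-1α knockout cells and HIF-2α knockout cells, each knockout being 1 CRISPR-Cas9 clone with a frameshift, were kept in 0.5% oxygen for 16 h (14 libraries, the deleted isoform not being precipitated). RCC4, a renal carcinoma line without functional VHL, was kept in normoxia, and HepG2, a liver cancer line, in 0.5% oxygen for 16 h (6 libraries each). The study describes the 2 libraries of a group as independent ChIP-seq experiments but not whether they came from separate cultures, so that p-values measure the spread between libraries, which may be technical.

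HIF-1α and HIF-2α are stabilised when oxygen falls and bind DNA as dimers with HIF-1β, at a short core sequence called the hypoxia response element (HRE). Among their textbook targets, BNIP3 and BNIP3L encode receptors on the outer mitochondrial membrane that recruit LC3 and so mark mitochondria for autophagy. FUNDC1 is a further receptor of this kind, and ULK1 is the kinase that starts autophagy. DDIT4 (REDD1) and SESN2 restrain the growth kinase complex mTORC1 under stress, MXI1 binds MAX and opposes MYC, and BCL2L1 encodes the survival protein BCL-XL.

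Each peak was described by the percentile of its score within its own list, with 100 for the best peak, and a gene or site without a peak in a list was given 0. Peaks of equal score share the best rank among them. List length ranged from 237 to 1793 peaks for the severity and duration libraries, from 915 to 8279 for the knockout libraries, from 911 to 5680 for RCC4 and from 3470 to 6851 for HepG2. Read depth is unknown, so a missing peak may lie just below the limit of the caller. The list of HIF-2α replicate 2 at 48 h, the shortest with 237 peaks, had no peak at any of the 8 genes. In HepG2 the labels and the lists diverged. The share of peaks within 1 kb of a start was 8.1% in HIF-1α replicate 1 and 30.1% in replicate 2, but 31.8% in HIF-2α replicate 1 and 9.9% in replicate 2, and HIF-1α replicate 2 overlapped HIF-2α replicate 1 by 50%, against 34.9% for the pair of HIF-1α replicates and 25.9% for the pair of HIF-2α replicates. HIF-1α replicate 1 overlapped HIF-2α replicate 2 by 33.1%, and HIF-1α replicate 2 did so by 44.4%. The isoform tests at the 8 genes were therefore also run without HepG2. Counts of libraries by antibody and the differences of other pathway genes include it.

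The sequences of the most widely called sites away from BNIP3L show where the HRE core lay. They are read from GRCh37 (hg19) on the plus strand, over 100 bp to either side of the median peak centre, and are shortened where an exon of a protein-coding gene began. Capitals mark the HRE core, ACGTG or GCGTG, on either strand.
DDIT4 upstream site (chr10:74020645-74020845): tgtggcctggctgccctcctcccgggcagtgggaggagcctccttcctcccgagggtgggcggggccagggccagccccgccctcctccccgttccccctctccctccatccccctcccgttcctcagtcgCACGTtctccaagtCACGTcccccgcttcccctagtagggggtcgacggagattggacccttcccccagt
DDIT4 promoter site (chr10:74033434-74033634): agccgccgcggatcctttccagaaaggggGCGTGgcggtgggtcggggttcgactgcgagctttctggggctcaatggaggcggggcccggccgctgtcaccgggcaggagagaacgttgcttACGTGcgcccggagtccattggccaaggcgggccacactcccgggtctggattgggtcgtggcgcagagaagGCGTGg
DDIT4 downstream site (chr10:74057441-74057641): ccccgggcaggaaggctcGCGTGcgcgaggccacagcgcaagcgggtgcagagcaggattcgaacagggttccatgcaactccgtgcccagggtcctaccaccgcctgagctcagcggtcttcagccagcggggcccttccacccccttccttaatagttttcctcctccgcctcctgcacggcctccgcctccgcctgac
BNIP3 promoter site (chr10:133795472-133795629): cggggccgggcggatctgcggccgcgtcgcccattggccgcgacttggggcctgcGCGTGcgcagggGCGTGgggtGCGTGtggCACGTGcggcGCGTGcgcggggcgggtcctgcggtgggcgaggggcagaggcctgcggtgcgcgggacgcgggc
MXI1 start site (chr10:111969684-111969884): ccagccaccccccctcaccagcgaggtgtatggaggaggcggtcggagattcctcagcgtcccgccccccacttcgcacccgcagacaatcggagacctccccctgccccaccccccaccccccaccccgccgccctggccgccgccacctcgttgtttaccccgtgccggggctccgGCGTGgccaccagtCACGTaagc
BCL2L1 intron site (chr20:30308039-30308239): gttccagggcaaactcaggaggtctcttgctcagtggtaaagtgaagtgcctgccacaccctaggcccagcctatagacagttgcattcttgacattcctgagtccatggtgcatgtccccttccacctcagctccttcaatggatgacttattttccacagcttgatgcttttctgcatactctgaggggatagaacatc
The DDIT4 upstream window held 2 cores, the DDIT4 promoter window 3, the downstream window 1 and the MXI1 window 2. The BNIP3 window, which begins at the first base upstream of the gene, held 6, of which a palindromic CACGTG was counted once on each strand. The BCL2L1 intron window held none, although the whole site held 7. Across the 25 sites, 10 (40.0%) had a core within 100 bp of the centre, against 33.9% of all sites. Of the 9 sites called in at least 10 libraries 6 did (66.7%), against 69.5% of all sites called as widely, a share close to that of other sites of like breadth. An AP-1 motif, TGACTCA or TGAGTCA, lay within 100 bp of the centre at 2 of the 25 sites (8.0%, against 7.98% of all sites), of which 1 was called in at least 10 libraries. Over whole sites the HRE core was found at 76% of the 25 and 56.5% of all sites, and the AP-1 motif at 40% and 20.6%. Among sites called in at least 10 libraries the whole-site HRE share was 100% at these genes and 97.1% at all genes. The AP-1 share of such sites was 44.4% and 49.8% over whole sites, and 11.1% and 18.1% within 100 bp of the centre.

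**Figure D1:**
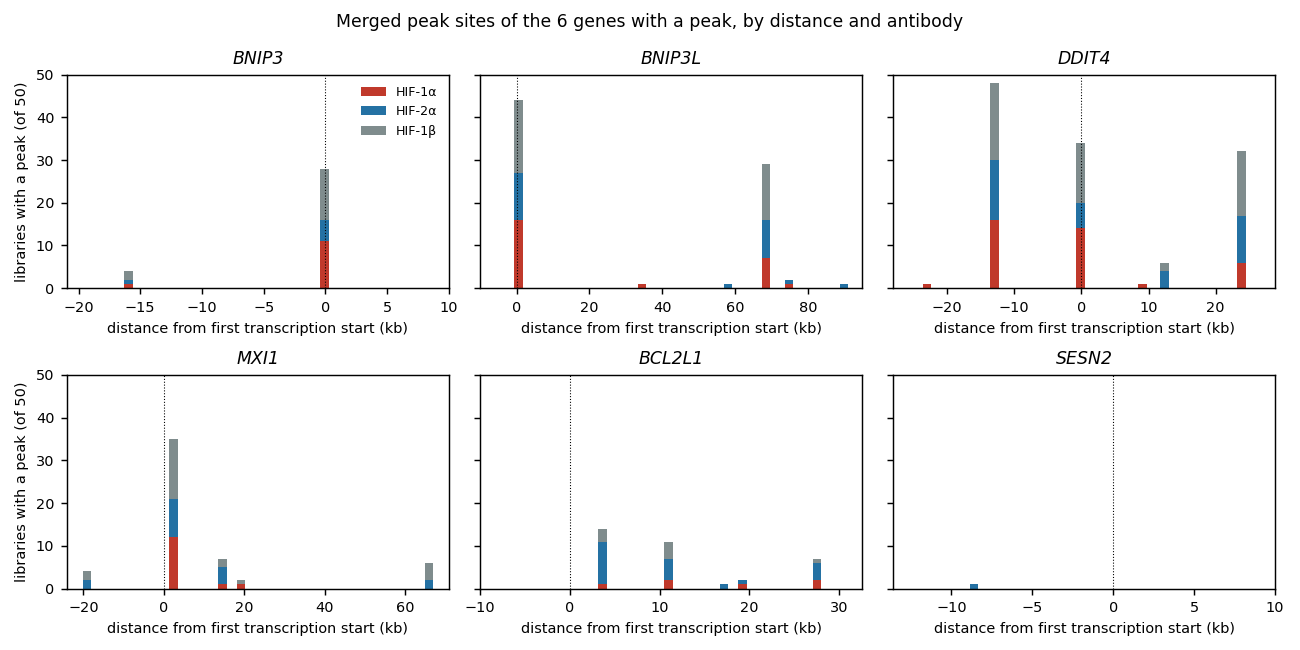
Merged peak sites of the 6 genes with a peak. The x axis gives the distance of the site from the first transcription start (kb), and the stacked bars give the number of the 50 libraries with a peak there, by antibody. DDIT4 carries 3 widely called sites and BNIP3L 2, while BNIP3 and MXI1 each carry 1.

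BNIP3 (ENSG00000176171.12_9, chr10:133781188-133795471, minus strand) was bound almost entirely at its promoter. The site, chr10:133794177-133796655, had its centre at −0.058 kb from the start and was called in 28 libraries, with HIF-1α in 11, HIF-2α in 5 and HIF-1β in 12. In the severity and duration experiment it was called in 19 of 24 libraries. With HIF-1α it stood at ranks 9 and 15 of its lists after 6 h in 0.5% oxygen, 12 and 15 after 16 h, 7 and 65 after 48 h and 10 and 86 in 3% oxygen. With HIF-2α it was called in replicate 1 alone at 6, 16 and 48 h, at ranks 130, 33 and 73, and in neither replicate in 3% oxygen. All 8 HIF-1α libraries thus had the BNIP3 promoter and 5 of 8 HIF-2α libraries lacked it. A second site 15.9 kb upstream, chr10:133810840-133812408, was called in 4 libraries, all of them HepG2.

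BNIP3L (ENSG00000104765.16_7, chr8:26240570-26363152, plus strand) had 2 widely called sites of unlike behaviour. The promoter site, chr8:26239753-26242612, lay 0.578 kb inside the gene in an intron and was called in 44 libraries, 16 of HIF-1α, 11 of HIF-2α and 17 of HIF-1β. With HIF-1α the replicates ranked it 4 and 7 after 6 h in 0.5% oxygen, 9 and 10 after 16 h, 9 and 19 after 48 h and 4 and 10 in 3% oxygen. It had the top score in RCC4 HIF-1α replicate 1, shared with other peaks (percentile 99.91), and it was the single best peak of HepG2 HIF-2α replicate 1. With HIF-2α its ranks were 175 and 193 after 6 h, 142 and 562 after 16 h and 115 in the 1 library with a call at 48 h, and no call was made in 3% oxygen. In these 4 conditions each called HIF-2α library ranked the site below every HIF-1α library. The second site, chr8:26305451-26309900, lay 68.4 kb inside the gene in an intron and was called in 29 libraries, 7 of HIF-1α, 9 of HIF-2α and 13 of HIF-1β. It had no call in the 8 HIF-1α libraries of the severity series, but was called in all 14 libraries of the knockout experiment and all 6 of RCC4.

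No peak belonged to the other 2 genes of mitochondrial turnover. The peak nearest to a start of FUNDC1 (chrX:44382885-44402105) lay 96.5 kb away. That nearest to ULK1 (chr12:132379167-132407695) lay 24.6 kb away and belonged to PUS1, and all 5 peaks within 50 kb of a ULK1 start were nearer to another gene, 4 of them to MMP17.

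DDIT4 (ENSG00000168209.4, chr10:74033678-74035794, plus strand) was the most widely called of the 8. Its upstream site, chr10:74019318-74021975, lay 12.9 kb before the start and had a peak in 48 libraries, 16 of HIF-1α, 14 of HIF-2α and 18 of HIF-1β, including all 14 of the knockout experiment and all 12 of RCC4 and HepG2. Its ranks ran from 1 (HIF-1β in HIF-2α knockout cells, replicate 2) to 242 (HIF-2α, 6 h, replicate 1), and the best DDIT4 peak was in the top 1% of its list in 18 of 48 libraries and in the top 10% in 45. The promoter site, chr10:74031853-74036252, with its centre at −0.144 kb from the start, was called in 34 libraries, 14 of HIF-1α, 6 of HIF-2α and 14 of HIF-1β. Of the severity and duration libraries, 7 of 8 with HIF-1α and 0 of 8 with HIF-2α had it, with HIF-1α ranks of 68 and 56 after 6 h, 96 and 75 after 16 h, 119 and 563 after 48 h and 44 in replicate 1 of 3% oxygen. The downstream site, chr10:74056470-74059499, lay 23.9 kb beyond the start and was called in 32 libraries, 6 of HIF-1α, 11 of HIF-2α and 15 of HIF-1β, of which 0 were HepG2. A further site at 12.4 kb, chr10:74045408-74047479, was called in 6 libraries, all in the knockout experiment, 4 of HIF-2α and 2 of HIF-1β.

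SESN2 (ENSG00000130766.5_6, chr1:28586029-28609002) had 1 peak, 8.59 kb before its start, in HIF-2α replicate 1 of 6 h in 0.5% oxygen, at rank 325 and without a call in replicate 2. Of 10 peaks within 50 kb of its start, 9 were nearer to another gene, 7 of them to MED18.

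MXI1 (ENSG00000119950.21_17, chr10:111967363-112047123) was bound 2.42 kb inside the gene, and at −0.205 kb from the nearest of its 37 starts. This site, chr10:111966678-111971393, was called in 35 libraries, 12 of HIF-1α, 9 of HIF-2α and 14 of HIF-1β. In RCC4 and HepG2 all 12 libraries had it, at ranks from 60 to 429. In the severity and duration experiment 9 of 24 did, and in 3% oxygen 0 of 6. BCL2L1 (ENSG00000171552.14_11, chr20:30252255-30311792, minus strand) had 5 intronic sites and weaker peaks, its best peak having a median percentile of 61.3 over 18 libraries, against 98.6 for DDIT4, 97.3 for BNIP3, 97.2 for BNIP3L and 86.8 for MXI1. The site 3.65 kb inside the gene, chr20:30306522-30311452, lay at −0.919 kb from the nearest of its 11 starts. It was called in 14 libraries, 1 of HIF-1α, 10 of HIF-2α and 3 of HIF-1β. The site 10.995 kb inside the gene, chr20:30299299-30303018, was called in 11 libraries, 2 of HIF-1α, 5 of HIF-2α and 4 of HIF-1β.

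**Figure D2:**
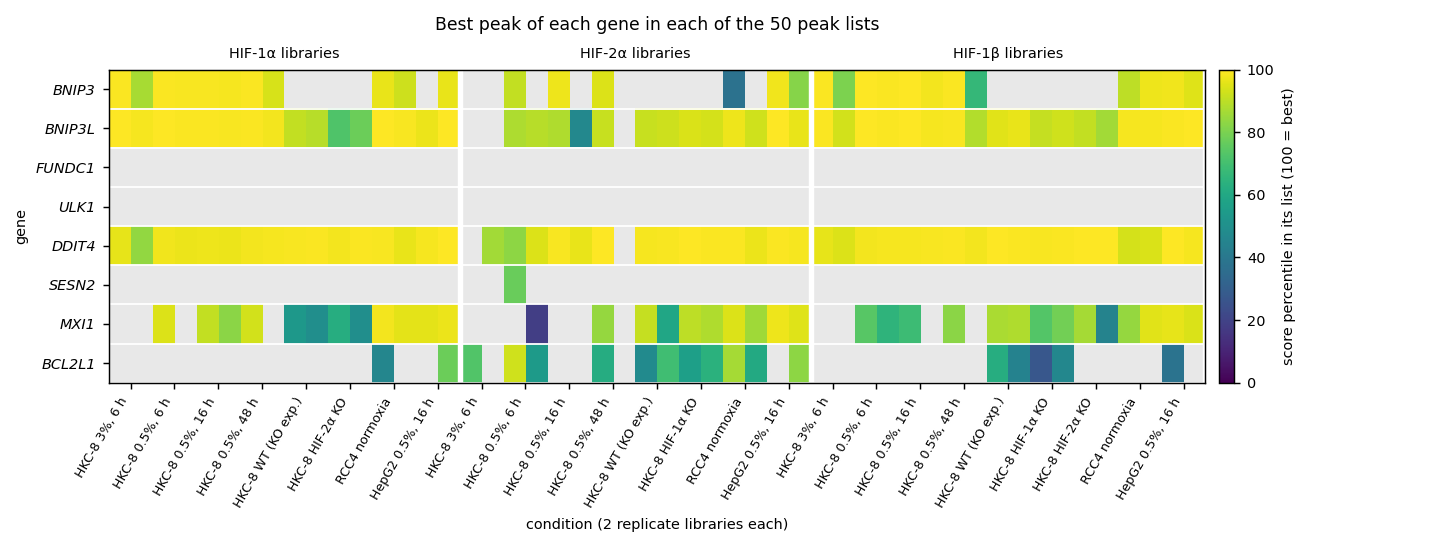
Score percentile of the best peak of each gene (rows) in each of the 50 lists (columns, grouped by antibody and condition, 2 libraries each). Yellow is the top of a list and grey means no peak. BNIP3 is grey in all 14 libraries of the knockout experiment, and BCL2L1 is filled mainly in HIF-2α and HIF-1β libraries.

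Breadth was read against all genes. As many libraries as DDIT4 were reached by 11 of the 19537 protein-coding genes, DDIT4 included (0.0563%), and as many as BNIP3L by 16 (0.0819%). The shares were 0.727% for MXI1, 1.49% for BNIP3 and 5.15% for BCL2L1. Counts of genes with a peak in both replicates of a group depended on the length of the lists, so each count of the 8 is given beside the share of all protein-coding genes. After 6 h in 0.5% oxygen 3 of the 8 were called in both replicates with HIF-1α (1.15% of all genes), 3 with HIF-2α (1.39%) and 4 with HIF-1β (1.89%). After 16 h the counts were 4 (1.39%), 2 (1.46%) and 3 (3.44%), and after 48 h 3 (0.63%), 0 (0.276%) and 3 (1.17%). In 3% oxygen they were 3 (0.43%), 0 (0.609%) and 3 (1.62%). Across these 4 conditions the HIF-1α and HIF-1β counts were 3 or 4, and those of HIF-2α 0 to 3. In WT cells of the knockout experiment the counts were 3 with HIF-1α (4.14%), 4 with HIF-2α (10.2%) and 4 with HIF-1β (14.4%). HIF-1α knockout cells gave 4 with HIF-2α (11.9%) and 4 with HIF-1β (8.5%), and HIF-2α knockout cells 3 with HIF-1α (2.75%) and 3 with HIF-1β (5.8%). In RCC4 each antibody gave 4 (HIF-1α 4.64%, HIF-2α 4.78%, HIF-1β 2.0%). In HepG2 the counts were 3 with HIF-1α (5.96%), 4 with HIF-2α (6.23%) and 4 with HIF-1β (9.9%). The HIF-2α count includes BNIP3, called at its promoter in replicate 1 and at the site 15.9 kb upstream in replicate 2. No single BNIP3 site was thus called in both.

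The first comparison asked whether the genes were called more strongly with HIF-1α or with HIF-2α. Percentiles of the best peak were compared in 28 libraries of the 7 conditions without a knockout, with an exact two-sided permutation test within condition over 279936 arrangements and Benjamini-Hochberg adjustment over the 3704 genes with a peak in at least 4 of the libraries. BNIP3L was higher with HIF-1α. The percentile was 89.5 at its lowest, 99.2 at the median and 99.9 at its highest in the 14 HIF-1α libraries, and 0, 90.5 and 100 in the 14 HIF-2α libraries. The ranges overlapped, with 3 HIF-2α libraries without a call. The mean difference was 28.2 percentile points ± 37.05 (SD over 7 conditions, higher with HIF-1α in 5 of 7, exact permutation test, adjusted p = 0.0373). Of the 5 genes tested it was the 1 called, and 2.0% of all genes tested were called. Without 1 of the HIF-1α libraries at 16 or 48 h the adjusted p of the permutation test missed the threshold, namely 0.192 and 0.196 without replicates 1 and 2 of 16 h and 0.295 and 0.28 without replicates 1 and 2 of 48 h. Without HepG2 it was 0.0174.

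The other 4 genes tested did not pass. BNIP3 had a call with HIF-1α in 11 of 14 libraries and with HIF-2α in 6 of 14, with medians of 96.6 and 0 and a difference of 40.1 ± 46.1 points (adjusted p = 0.194 by the same exact permutation test). BCL2L1 was called in 2 and 9 of 14, with medians of 0 and 57.6, and its difference was −36.2 ± 27.6 points, lower with HIF-1α in 6 of 7 conditions and equal in the other (exact permutation test, adjusted p = 0.148). DDIT4 was called in 14 and 12 libraries and differed by 14.8 ± 22.7 points (exact permutation test, adjusted p = 0.475), and MXI1 in 10 and 8 by 16.1 ± 36.1 (adjusted p = 0.628). Without the HepG2 libraries BNIP3 and BCL2L1 passed as well, with differences of 53.7 and −41.7 (exact permutation test, adjusted p of 0.0174 and 0.0371). DDIT4 and MXI1 did not, with differences of 17.3 and 18.7 (exact permutation test, adjusted p of 0.313 and 0.451). Of 2436 genes tested without HepG2 6.4% passed, 2.55% being higher with HIF-1α. For BNIP3 it was enough to leave out HepG2 HIF-1α replicate 1 (exact permutation test, adjusted p = 0.0414), and for BCL2L1 HepG2 HIF-2α replicate 1 (0.0377). With all lists shortened to the length of the shortest, 4 of the 8 genes passed (BNIP3, BNIP3L, DDIT4 and MXI1), each higher with HIF-1α. Under this setting 388 genes were tested and 36.9% passed, 18.8% being higher with HIF-1α, and BCL2L1 had too few calls to be tested. The direction of DDIT4 depended on the assignment of its peaks, since the difference was −17.99 points (exact permutation test, adjusted p = 0.619) with all biotypes competing and 58.5 (0.0454) within 10 kb.

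At single sites the isoforms divided within DDIT4. Of 3314 sites tested 5.49% passed, and of the 11 tested at these genes 3 did. The DDIT4 promoter site had a call with HIF-1α in 12 of 14 libraries and with HIF-2α in 4 of 14, with percentiles from 0 to 96.5 (median 90.6) and from 0 to 98.6 (median 0). The difference was 57.3 ± 46.9 points, higher with HIF-1α in 6 of 7 conditions (exact permutation test, adjusted p = 0.0337). The DDIT4 downstream site went the other way. It was called in 4 and 9 of 14 libraries, with percentiles from 0 to 97.5 (median 0) with HIF-1α and from 0 to 99.4 (median 86.5) with HIF-2α, and differed by −38.7 ± 18.7 points, lower with HIF-1α in 6 of 7 conditions and equal in HepG2 (exact permutation test, adjusted p = 0.0433). The DDIT4 upstream site, called in 14 and 12 libraries, differed by 15.2 ± 22.7 points and did not pass (exact permutation test, adjusted p = 0.214, and 0.138 without HepG2). The BCL2L1 site at 3.65 kb was called in 1 and 8 libraries and differed by −35.8 ± 28.2 points (exact permutation test, adjusted p = 0.0433). The promoter sites of BNIP3 (45.9 ± 35.3 points) and BNIP3L (31.5 ± 34.8 points) both had an adjusted p of 0.0822 (exact permutation test). Both passed without HepG2, at 0.0127 and 0.0499, where 13.9% of 2271 sites tested passed. The MXI1 start site differed by 17.4 ± 37.2 points (exact permutation test, adjusted p = 0.415) and the intronic BNIP3L site at 68.4 kb by −10.7 ± 26.8 points (adjusted p = 0.531).

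Each site call was lost without 1 or another single library, while the differences kept their sign in all 28 such fits. They ran from 50.4 to 64.2 points at the DDIT4 promoter and from −45.6 to −31.7 at the DDIT4 downstream site. At the BCL2L1 site they ran from −41.0 to −30.6. The DDIT4 promoter site was lost, with adjusted p from 0.053 to 0.0679, without HIF-1α replicate 1 of 48 h (0.0567), HIF-1α replicate 1 (0.0587) or HIF-2α replicate 2 (0.053) of 3% oxygen, or HepG2 HIF-1α replicate 2 (0.0679) or HIF-2α replicate 2 (0.0556). The DDIT4 downstream site was lost, at 0.0631 to 0.129, without 1 of 14 libraries. These were the HIF-1α replicates 1 and 2 of 6 h, 48 h and 3% oxygen, HIF-2α replicate 2 of 6 h, replicates 1 and 2 of 16 h, replicate 1 of 48 h and replicate 2 of 3% oxygen, and RCC4 HIF-1α replicate 2 and HIF-2α replicates 1 and 2. The BCL2L1 site was lost, at 0.0513 to 0.0811, without 1 of 11, namely the HIF-1α replicates 1 and 2 of 6 h, 48 h and 3% oxygen, HIF-2α replicate 1 of 48 h and of 3% oxygen, and the same 3 RCC4 libraries. In the other direction, the BNIP3L promoter site passed without HIF-2α replicate 1 of WT cells in the knockout experiment (0.0109), and the BNIP3 promoter site without HepG2 HIF-1α replicate 1 (0.0297) or HIF-2α replicate 1 (0.0259). Without HepG2 all 3 calls held, at 0.00621 for the DDIT4 promoter and 0.0238 for both other sites. With lists of equal length the DDIT4 promoter site missed the threshold (0.098) and the upstream site passed (27.97 points, 0.00854), and in windows of 200 bp around the peak centres the downstream site missed it (−31.7 points, 0.182), while the DDIT4 promoter and BCL2L1 windows passed. With a score of at least 100 the DDIT4 promoter (24.5 points, 0.239) and downstream site (−24.9 points, 0.2) missed it, the BCL2L1 site had too few calls to be tested, and the BNIP3L promoter passed (44.6 points, 0.0392).

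**Figure D3:**
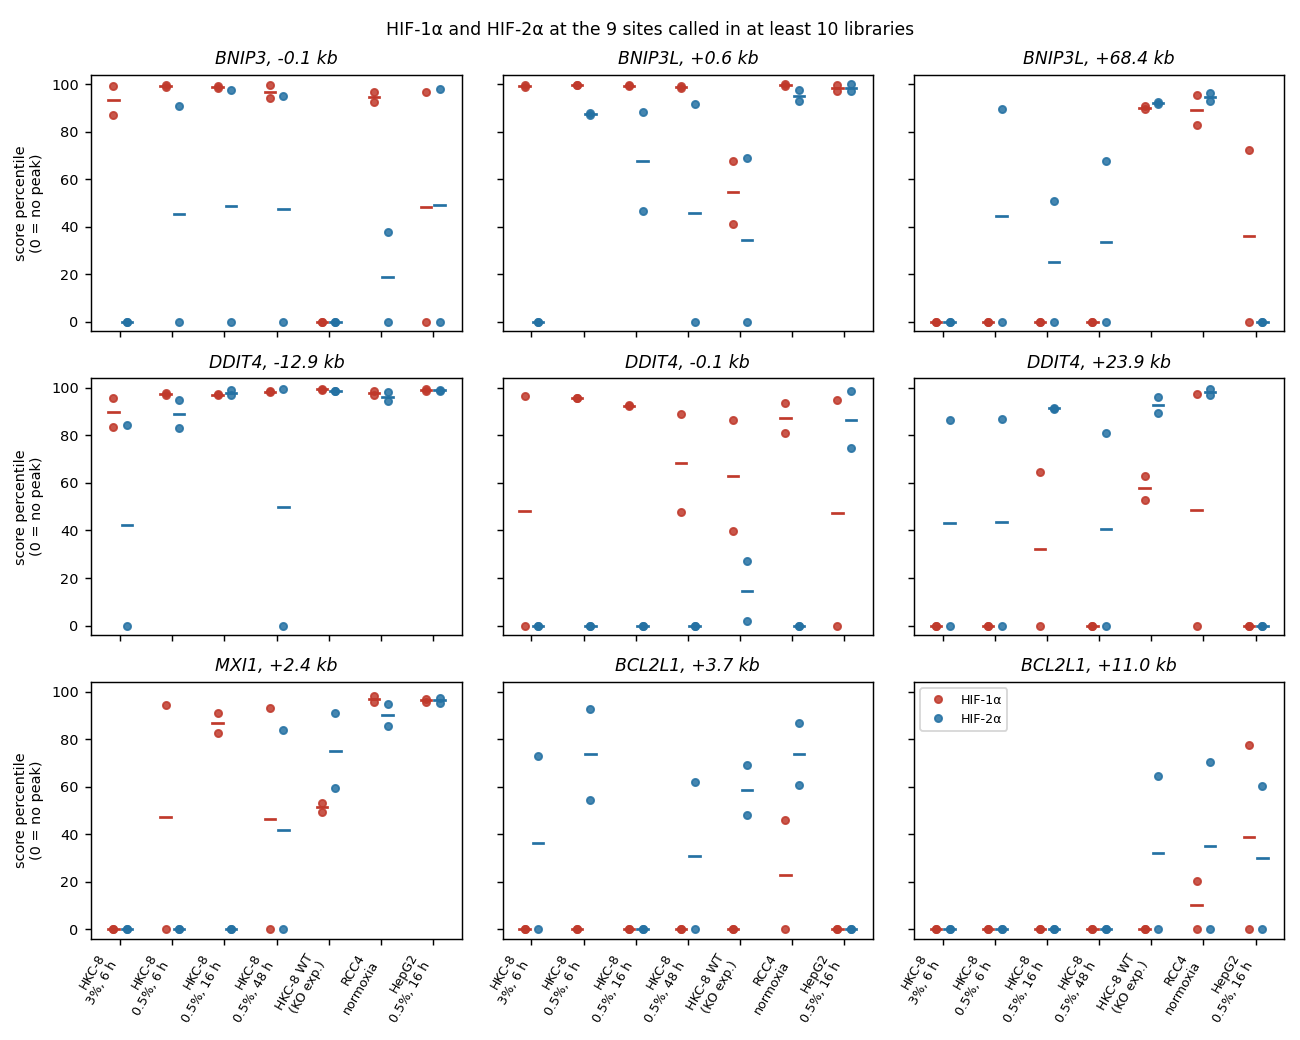
Score percentile (y axis, 0 means no peak) of the 9 sites called in at least 10 libraries, by condition (x axis). Each point is 1 library and each bar the mean of 2, with HIF-1α in red and HIF-2α in blue. At the DDIT4 promoter the HIF-2α points of the first 4 conditions lie at 0, and at the BCL2L1 site at 3.7 kb nearly all HIF-1α points do.

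The knockout experiment asked where the remaining isoform binds when the other is missing. With 2 libraries against 2 the smallest p is 0.333, so that these values carry no test. The DDIT4 upstream site stayed near the top of every list, with a mean percentile of 98.7 ± 0.19 for HIF-2α in WT cells and 99.6 ± 0.04 in HIF-1α knockout cells, and of 99.35 ± 0.27 and 98.9 ± 0.72 for HIF-1α in WT and HIF-2α knockout cells (SD, n = 2). The DDIT4 promoter site stood at ranks 3308 and 6611 with HIF-2α in WT cells and at 1970 and 1752 in HIF-1α knockout cells, and the mean percentiles were 14.6 ± 17.7 and 67.8 ± 7.7. The HIF-2α ranges did not overlap between these genotypes at this site, nor at the DDIT4 upstream site or the intronic BNIP3L site, each being higher in HIF-1α knockout cells. Less widely called MXI1 sites also had no overlap, in opposite directions. The site 19.1 kb before the first MXI1 start was called with HIF-2α in 2 of 2 WT libraries (19.8 ± 10.05) and 0 of 2 knockout libraries. The site 65.8 kb inside MXI1 was called in 0 of 2 WT libraries and 2 of 2 knockout libraries (48.8 ± 23.7). How many of all sites do the same was not counted. At the DDIT4 promoter site HIF-1β was called in both replicates of WT cells (ranks 460 and 1041) and in 1 replicate of HIF-1α knockout cells (rank 2741). It stood at 479 and 91 in HIF-2α knockout cells.

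At the BNIP3L promoter HIF-1β was called in both WT replicates (mean percentile 74.3 ± 9.2), in 1 of 2 HIF-1α knockout replicates (14.8 ± 20.9) and in both HIF-2α knockout replicates (68.4 ± 16.1). HIF-2α was called there in 1 of 2 WT libraries, at rank 1408, and in 1 of 2 HIF-1α knockout libraries, at rank 4430. The intronic BNIP3L site was called in all 14 libraries, with HIF-2α at 92.2 ± 0.5 in WT and 93.9 ± 0.4 in HIF-1α knockout cells and HIF-1α at 90.1 ± 0.9 in WT and 74.1 ± 2.2 in HIF-2α knockout cells. At the BCL2L1 site at 3.65 kb HIF-2α was called in all 4 libraries of WT and HIF-1α knockout cells (58.6 ± 14.9 and 46.7 ± 21.96). HIF-1β was called there in both WT replicates and 1 of 2 HIF-1α knockout replicates. HIF-1α was called in neither WT replicate, and neither HIF-1α nor HIF-1β in any HIF-2α knockout library. The WT HIF-1β ranks were 5737 and 5156, whereas the HIF-1β lists of HIF-2α knockout cells held only 2550 and 2085 peaks. Whether the shorter lists account for the missing HIF-1β calls was not tested. The MXI1 start site was called in all 14 libraries, with HIF-2α at 75.2 ± 22.5 in WT and 89.1 ± 1.5 in HIF-1α knockout cells and HIF-1α at 51.4 ± 2.6 in WT and 55.9 ± 9.2 in HIF-2α knockout cells. Each knockout is a single clone, so that clone and genotype cannot be told apart.

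**Figure D4:**
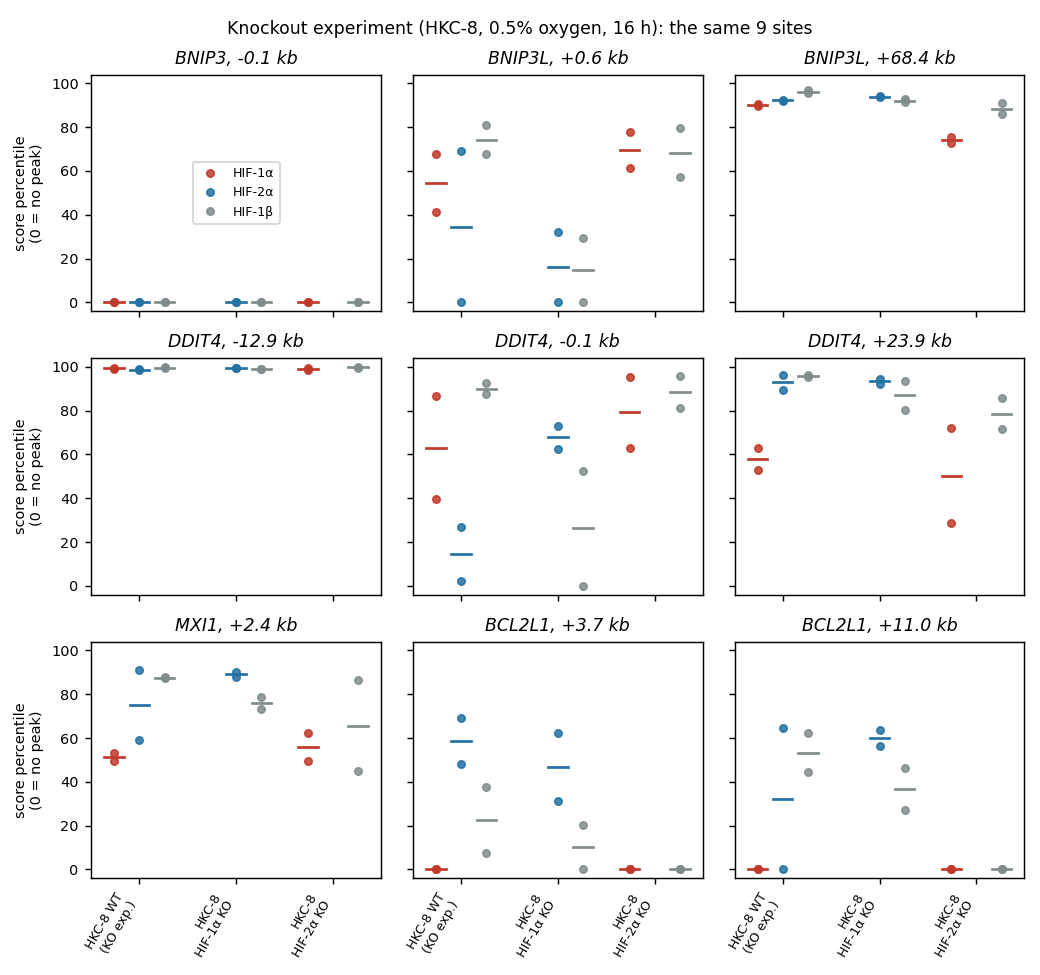
Score percentile (y axis, 0 means no peak) of the same 9 sites in WT, HIF-1α knockout and HIF-2α knockout HKC-8 cells (x axis), with 1 point per library and a bar at the mean of 2. The DDIT4 upstream site stays near 100 throughout, and the BCL2L1 sites are at 0 in HIF-2α knockout cells and, with HIF-1α, in WT cells.

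BNIP3 had no peak in any of the 14 libraries of the knockout experiment, WT cells included. The cells, oxygen and time of its WT arm match the 16 h arm of the severity and duration experiment, where the BNIP3 promoter was called in 5 of 6 libraries, at percentiles from 0 to 99.9 (median 98.5). A comparison of these 12 libraries was added after the values were seen. BNIP3 differed by 82.2 percentile points ± 29.1 (SD over 3 antibodies, higher in the severity and duration experiment with all 3), with an adjusted p of 0.0731 by the exact permutation test within antibody, and 21.1% of all 2392 genes tested passed, 0.543% being higher in the severity and duration experiment, as BNIP3 was. DDIT4 (−1.27 points, exact permutation test, adjusted p = 0.0731), BCL2L1 (−37.3, 0.0778), MXI1 (−31.0, 0.199) and BNIP3L (−4.17, 0.93) did not pass either. With peaks of a score of at least 100 DDIT4 did (−9.38 points, exact permutation test, adjusted p = 0.0364). Under that setting 25.4% of 1360 genes passed, only 0.368% being higher in the severity and duration experiment. With lists of equal length the differences of MXI1 and BNIP3L turned to 21.1 and 17.9 points, and with starts alone that of BNIP3L to 34.2, without passing. The peak nearest to the BNIP3 promoter site in the knockout experiment lay 35.3 kb from it, and 5 of the 14 libraries had a peak within 300 kb. Of 494 sites called in at least 8 of the 24 severity and duration libraries, 55 (11.1%) had no peak in the knockout experiment, and of the 44 sites called in at least 19, as BNIP3 was, it was the 1 without one. Whether the libraries, the cells or the processing of that experiment account for this was not tested. The WT cells of the knockout experiment are the HKC-8 group in the comparisons between cell lines below, so that the BNIP3 values there share this gap.

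Oxygen and time were compared over 12 libraries each, with all 3 antibodies and permutation within antibody, for which the smallest p is 0.00926. At that limit a gene can pass the adjustment only if many others come near the smallest p too, so that a miss decides little. None of the genes passed, and neither did any other gene in these comparisons (0% of 567 for oxygen, of 784 for 16 against 6 h and of 669 for 48 against 16 h, with 44, 39 and 60 genes at an unadjusted p under 0.05). In 3% against 0.5% oxygen the best percentile was lower with each antibody for BNIP3 (−20.4 ± 21.8 points, adjusted p = 0.407), BNIP3L (−30.8 ± 50.1, 0.354), DDIT4 (−18.6 ± 23.6, 0.407) and MXI1 (−42.0 ± 30.4, 0.407), by the exact permutation test. MXI1 had no peak in the 6 libraries of 3% oxygen and 4 in the 6 of 0.5%. It thus met the limit of 4 libraries through 0.5% oxygen alone, which fixed its direction. The differences of the genes were read against a median over all genes tested of −8.89 points. Between 6 and 16 h the 4 genes tested moved by −7.32 to 3.06 points, all below the median of 4.81 over all genes tested, and between 16 and 48 h by −15.6 to 2.89, where the median over all genes tested was −18.0. DDIT4 had no peak at 48 h in HIF-2α replicate 2, the short list, and without the replicates numbered 2 its difference was 0.769 points.

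Cell lines were compared with WT HKC-8 in the same way. In RCC4 0% of 2786 genes passed, with 644 at an unadjusted p under 0.05, and in HepG2 0% of 3872, with 1271. BNIP3L stood at percentiles of 89.5 to 96.7 in WT HKC-8, 92.8 to 99.9 in RCC4 and 96.9 to 100 in HepG2. The difference was 5.01 ± 3.78 points in RCC4 (adjusted p = 0.0887) and 6.04 ± 2.42 in HepG2 (adjusted p = 0.0547), and both raw p were the smallest that the permutations can give. MXI1 stood at 49.5 to 91.1 in WT HKC-8, 84.2 to 98.3 in RCC4 and 94.4 to 97.5 in HepG2, with differences of 21.0 ± 22.3 (exact permutation test, adjusted p = 0.167) and 24.6 ± 18.9 (adjusted p = 0.0547). In the 16 h libraries of the severity and duration experiment BNIP3L stood at 46.6 to 99.6 (median 98.9, against 92.2 in the WT cells used here). MXI1 stood there at 0 to 91.0 (median 34.2, against 73.3). How the lines differ from those HKC-8 libraries was not tested. BNIP3 was called in 5 of 6 libraries in each of the cancer lines and in 0 of 6 of WT HKC-8, with differences of 69.1 ± 43.5 (exact permutation test, adjusted p = 0.131) and 78.2 ± 26.1 (adjusted p = 0.0897). DDIT4 differed by −2.53 ± 2.70 in RCC4 and −0.139 ± 0.403 in HepG2, and BCL2L1 by −5.1 ± 42.0 and −4.26 ± 38.2. With lists shortened to equal length BNIP3L passed in RCC4 (exact permutation test, adjusted p = 0.0382), and BNIP3L and MXI1 in HepG2 (0.0288 for both). In RCC4 24.3% of 824 genes passed under this setting, 6.55% being higher in RCC4. In HepG2 32.1% of 1594 genes passed, 13.2% being higher in HepG2. HepG2 against RCC4 gave 0% of 3075 genes passing, with 792 at an unadjusted p under 0.05, and differences at the 5 genes from 0.843 to 9.14 points with adjusted p from 0.187 to 1. The DDIT4 downstream site was called in 5 of 6 RCC4 libraries, in 0 of 6 of HepG2 and, in HKC-8, in 14 of 14 libraries of the knockout experiment and 13 of 24 of the severity and duration experiment, a difference between lines that was not tested.

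HIF-1β was set beside the α subunits by counting, in each condition, sites with a peak in any α library. HIF-1β was called in at least 1 library at 7 of 10 such sites at 6 h, 7 of 7 at 16 h, 7 of 10 at 48 h and 4 of 6 in 3% oxygen. It was called at 10 of 10 in WT cells, 10 of 12 in HIF-1α knockout cells, 6 of 6 in HIF-2α knockout cells, 7 of 13 in RCC4 and 8 of 14 in HepG2. Sites with HIF-1β and no α call were 2 in WT cells and 1 in HepG2, and 0 in the other 7 conditions. Over all sites with an α call, most of which were called in few libraries, the share with HIF-1β was 9.66% at 6 h, 25.2% at 16 h, 12.7% at 48 h and 8.86% in 3% oxygen. It was 82.3% in WT, 70.8% in HIF-1α knockout and 84.4% in HIF-2α knockout cells, 8.9% in RCC4 and 30.1% in HepG2.

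The other genes of these pathways had a peak in a median of 1 library, as did all protein-coding genes. Of a list of 100 genes of mitophagy, autophagy, mTOR signalling, the BCL-2 family and the MAX network, 64 had a peak and 15 had one in at least 10 libraries (15%, against 13.2% of all protein-coding genes). The shares were 3 of 20 for mitophagy receptors and machinery, 4 of 21 for autophagy initiation and the LC3 system, 4 of 32 for the mTOR pathway, 3 of 15 for the BCL-2 family and 1 of 12 for the MAX network. Between HIF-1α and HIF-2α 21 of the list were tested, and their median difference was −0.712 points, against −0.896 over all genes tested. Widely called genes of the list were RPTOR, the mTORC1 scaffold (37 libraries), DEPTOR, an inhibitor of mTOR (27), VDAC1, a mitochondrial outer membrane channel (27), MLXIP (24), the BCL-2 relatives BOK (23) and BMF (17), ATG14 of the autophagy lipid kinase complex (22), and the mTORC1 substrate EIF4EBP1 and the kinase TBK1 (15 each). DEPTOR was called in 4 HIF-1α and 12 HIF-2α libraries (−34.0 points, exact permutation test, adjusted p = 0.148), and VDAC1 at 1 site 0.1 kb from its start.

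Genes outside the list whose calls over the 50 libraries were most like those of the 5 widely bound members were, by the share of libraries called for either gene that were called for both, GAPDH (48 of 48) and ALDOA (48 of 49) for DDIT4, GAPDH (47 of 48) and GPI (46 of 47) for BNIP3L, GBE1 and NAT10 (34 of 38 each) for MXI1, and EGLN1 and RASSF7 (26 of 32 each) for BNIP3. The values were lower for BCL2L1, with CES3 (16 of 21) and C11orf86 (18 of 24). GAPDH, ALDOA and GPI encode enzymes of glycolysis and EGLN1 the oxygen sensor PHD2. Genes with peaks in nearly all libraries must share most of them, whatever else they have in common.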

How the data were processed

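Peak lists of 50 ChIP-seq libraries were used. The authors trimmed reads with Trim Galore, aligned them to GRCh37 (hg19) with BWA, removed poorly mapped reads, marked duplicates and black-listed regions, and called peaks with MACS in control mode. The study also used a further caller and a filter, and whether the deposited lists passed these is not given in the sources used here. The deposited score of each peak was read as the scaled negative log of its p-value and used only for ranks within a list, since no list gives depth. The lowest score in any list was 50.

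Peaks were assigned to genes of GENCODE 44 on GRCh37 by gene body or a start within 50 kb, and merged into sites at 1 bp of overlap. Genes and sites with a peak in at least 4 libraries of a comparison were tested across all genes or sites by exact two-sided permutation of library labels, stratified by condition or antibody, with Benjamini-Hochberg adjustment (threshold 0.05, Python 3.11.15, NumPy 2.4.6, pandas 2.3.3). The code was tested on simulated data. The 16 input samples had no peak list and were not analysed here.

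The genes, lists and tests were chosen with earlier results of these data known. Named genes were the 8, the 10 of 100 pathway genes with peaks in most libraries, any of the 100 that passed, and for members called in at least 10 libraries the 2 genes with the highest Jaccard index. A result that this rule names is not reported here. Alternatives were calls as 1 or 0, lists of equal length, a score of at least 100, a peak in at least 1 library, permutation within replicate number, each replicate number left out, starts without gene bodies, all biotypes competing, a limit of 10 kb, windows of 200 bp, HepG2 left out and the HRE searched over whole sites. Leaving out single libraries, crossing the HepG2 replicate numbers and comparing the WT arms of the 2 experiments were chosen after seeing the data.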

Additional observations from a re-analysis of the deposited data

Results flagged for a closer look

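BNIP3L and MXI1 stand here because every library of one isoform lay above every library of the other in some conditions and below them in others. These differences between conditions were not tested, and each rests on 2 libraries against 2. How many of all genes meet the same rule was not counted, so the flag does not set BNIP3L and MXI1 apart from other genes. For BNIP3L the best percentile of HIF-1α exceeded that of HIF-2α by 11.1 points after 6 h in 0.5% oxygen, 31.8 after 16 h, 52.9 after 48 h, 99.2 in 3% oxygen and 4.29 in RCC4, whereas in WT cells of the knockout experiment it differed by −2.06. In that experiment the best BNIP3L peak was the intronic site with both isoforms, and in the others mostly the promoter. For MXI1 the difference was 86.9 points after 16 h in 0.5% oxygen and 6.76 in RCC4, against −23.9 in WT cells of the knockout experiment. List lengths moved with the experiment, with up to 1793 peaks in the severity and duration libraries and up to 8279 in the knockout libraries, and their part in these differences was not tested.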

How the results depend on the processing

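No result at these genes past its threshold with the main settings changed direction under any alternative, but most calls were lost under some. DDIT4 by gene did not pass with the main settings. Its difference was 58.5 points within 10 kb and 23.5 with lists of equal length, where it passed, and −17.99 with all biotypes competing. In the comparison of HIF-1α with HIF-2α by gene, 74 genes and 1 of the 8 passed. With calls as 1 or 0, with genes of at least 1 library, and with permutation in a replicate block, paired by number, 0 genes and 0 of the 8 passed. With lists of equal length 143 genes (36.9% of those tested) and 4 of the 8 did, and without HepG2 156 (6.4%) and 3. With a score of at least 100, 46 genes (3.43%) and 1 of the 8 did. Of the 8, 0 passed with starts alone (68 of all genes, 1.97% of those tested) and 2 within 10 kb (61 of all genes, 2.03%). By site 182 sites (5.49% of 3314 tested) and 3 of the members' passed. With 1 or 0, sites of at least 1 library, and the replicate block, 0 and 0 did. Without HepG2 316 (13.9% of 2271 tested) and 5 did, and with lists of equal length 179 (37.3% of 480 tested) and 5. With a score of at least 100, 54 (3.3% of 1638 tested) and 1 did, namely the BNIP3L promoter, not 1 of the 3. In windows of 200 bp 163 (5.29% of those tested) passed, 2 of them at the members. With lists of equal length RCC4 against WT HKC-8 gave 200 genes (24.3% of those tested) and 1 of the 8. HepG2 against WT HKC-8 gave 512 (32.1%) and 2, and HepG2 against RCC4 173 (19.1%). The peaks of the 8 genes numbered 159 in lists of equal length, and 19 of the 25 sites held an HRE core when whole sites were searched (56.5% of all sites did).

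Leaving out single libraries gave 32 to 111 genes and 0 to 2 of the 8, and 67 to 254 sites and 0 to 4 of the members'. Without a replicate number 0 genes and 0 sites passed, where 128 arrangements allow no p below 0.0156, and in the comparisons of 12 libraries the smallest p is then 0.25. Replicate numbers did not pair the libraries: deviations of the isoforms correlated above 0.1 in 2 of 7 conditions, at 0.104 and 0.215, and at −0.444 in HepG2, where crossing the numbers in the replicate block also gave 0 genes and 0 sites. In that block the smallest p is 0.000122. The cause of these changes was not tested, except that a list cut short and genes of 1 library change how many genes are tested. No depth is known, which limits every statement on missing peaks.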
